A study of Mus musculus with 9 samples.

Results

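Kit, Flt3 and Csf1r, the 3 receptor tyrosine kinases that read growth factors on early blood cells, were examined among the 22350 protein-coding genes of the annotation for binding of CTCF and of Rad21, a subunit of cohesin. The members were chosen by name. Every peak of 5 deposited lists that touched the gene body, or lay up to 150 kb on either side of it, was taken. This gave 176 of the 190262 peaks. Overlapping peaks were joined across the lists into sites, and 74 of the 83461 sites of the genome lay in the 3 windows, with 9 sites at Kit, 42 at Flt3 and 23 at Csf1r.

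The samples came from C57BL/6 mice, and all of them lacked RAG1, so that no antigen receptor gene could be rearranged. CTCF was profiled in pro-B cells grown with IL7 for 7 days and in pre-B cells, while Rad21 was profiled in DN thymocytes, DP thymocytes and pre-B cells. The pre-B cells carried a rearranged IgM heavy-chain transgene and the DP thymocytes a rearranged TCRβ transgene, which carry RAG-deficient cells past the stage where they would stop. Bone marrow donors were 6 to 14 weeks old and thymus donors 4 to 8 weeks. Each antibody and cell type had 1 library, so there was no replicate and no test between cell types was run. CTCF in thymocytes, Rad21 in cultured pro-B cells and uncultured pro-B cells were not analysed here. Peak lists hold no expression markers, so the labelled cell types could not be checked against any.

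CTCF binds a motif that can point either way along the chromosome, and cohesin, which extrudes loops of DNA, is held back at CTCF sites, above all where the motif points toward it. Cohesin is also found at active promoters and enhancers without CTCF. Kit binds stem cell factor and Flt3 binds Flt3 ligand, and both are used by stem cells and early lymphoid progenitors. Csf1r binds CSF1 and IL34 and serves macrophages and their precursors.

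The lists differed in length, which sets what can be compared. They held 71080 CTCF peaks in IL7-cultured pro-B cells, 42250 CTCF peaks in pre-B cells, and 30488, 9701 and 36743 Rad21 peaks at the pre-B, DN and DP stages. The lowest score kept ran from 50 in the longest list to 86.45 in the DN list, and the files do not give read depth. The score is the authors' peak score against input and served only to rank peaks within 1 list, given here as the percentage of the list that scored lower. A site without a peak may still be bound below what the peak caller accepted. Positions are mm9, and a distance is that of the middle of a site from the gene start in the direction of transcription, negative upstream.

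Kit, on chromosome 5 from 75970941 to 76052747 on the plus strand, carried its binding at the very start of the gene, and no list held a peak over the remaining 80.6 kb of the gene body. The 250 bases before the start are shown because peaks of both proteins reached into them, with the GGGCGG motif of GC-box binding factors in capitals.
Kit promoter, chr5:75970691-75970940, plus strand: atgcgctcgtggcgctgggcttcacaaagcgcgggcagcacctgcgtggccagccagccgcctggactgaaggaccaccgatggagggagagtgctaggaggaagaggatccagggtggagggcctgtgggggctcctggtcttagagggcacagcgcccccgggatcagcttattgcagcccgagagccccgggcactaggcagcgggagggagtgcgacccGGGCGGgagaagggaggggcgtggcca
The Flt3 promoter is shown for comparison. A pre-B Rad21 peak reached into it from the gene, and a CTCF peak began further upstream.
Flt3 promoter, chr5:148212066-148212315, minus strand: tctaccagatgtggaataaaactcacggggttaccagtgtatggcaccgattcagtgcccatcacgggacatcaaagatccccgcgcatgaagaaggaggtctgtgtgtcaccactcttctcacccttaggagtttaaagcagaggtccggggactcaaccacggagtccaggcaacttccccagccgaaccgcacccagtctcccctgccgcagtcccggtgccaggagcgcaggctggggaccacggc
Over 300 bases, from 250 before the start to 50 after it, Kit had 70% G and C and 22 CG dinucleotides, Flt3 had 61% and 18, and Csf1r, whose sequence is not shown, had 45.3% and 0. On both strands GGGCGG was found 1 time at Kit and at neither of the others, whereas 43.5% of all promoters of this length held it. TATAAA was found in none of the 3 promoters and in 13.4% of all promoters, so no match of the first motif overlapped the second. The CTCF consensus used here, the Homer_DeNovo motif of 12 bases searched on both strands with at most 2 mismatches, was found in none of the 3 and in 8.41% of all promoters.

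At the Kit start, CTCF was called in both B-lineage libraries and Rad21 in both thymocyte libraries, whereas Rad21 was not called in pre-B cells. A site over exon 1, chr5:75970726-75971359, held a CTCF peak in IL7-cultured pro-B cells that scored above 34.8% of its list and a Rad21 peak in DP thymocytes above 64.9%. The next site, chr5:75971381-75972191, had its middle 0.845 kb into the gene, in intron 1 of 20. There CTCF scored above 72% of the list in IL7-cultured pro-B cells but only above 11.4% in pre-B cells, and Rad21 scored above 42% of the peaks in DN and 74.5% in DP. The peaks of all 4 libraries overlapped at this intron site, and the pre-B Rad21 list, which is over 3 times as long as the DN list, had none. Of all Rad21 sites, 0.94% were called in DN and DP and not in pre-B cells, and 1 of the 6 Rad21 sites of Kit was among them. The Rad21 lists were also limited to the 9701 best-scoring peaks each, which is the whole DN list, so no DN peak could be lost. The intron site was then kept in DN and DP, as were 42.8% of all sites called in DN and DP alone, and the exon 1 site was lost. The pre-B CTCF peak at the intron site had a score of 89.03 and was lost when scores under 100 were left out.

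**Figure D1:**
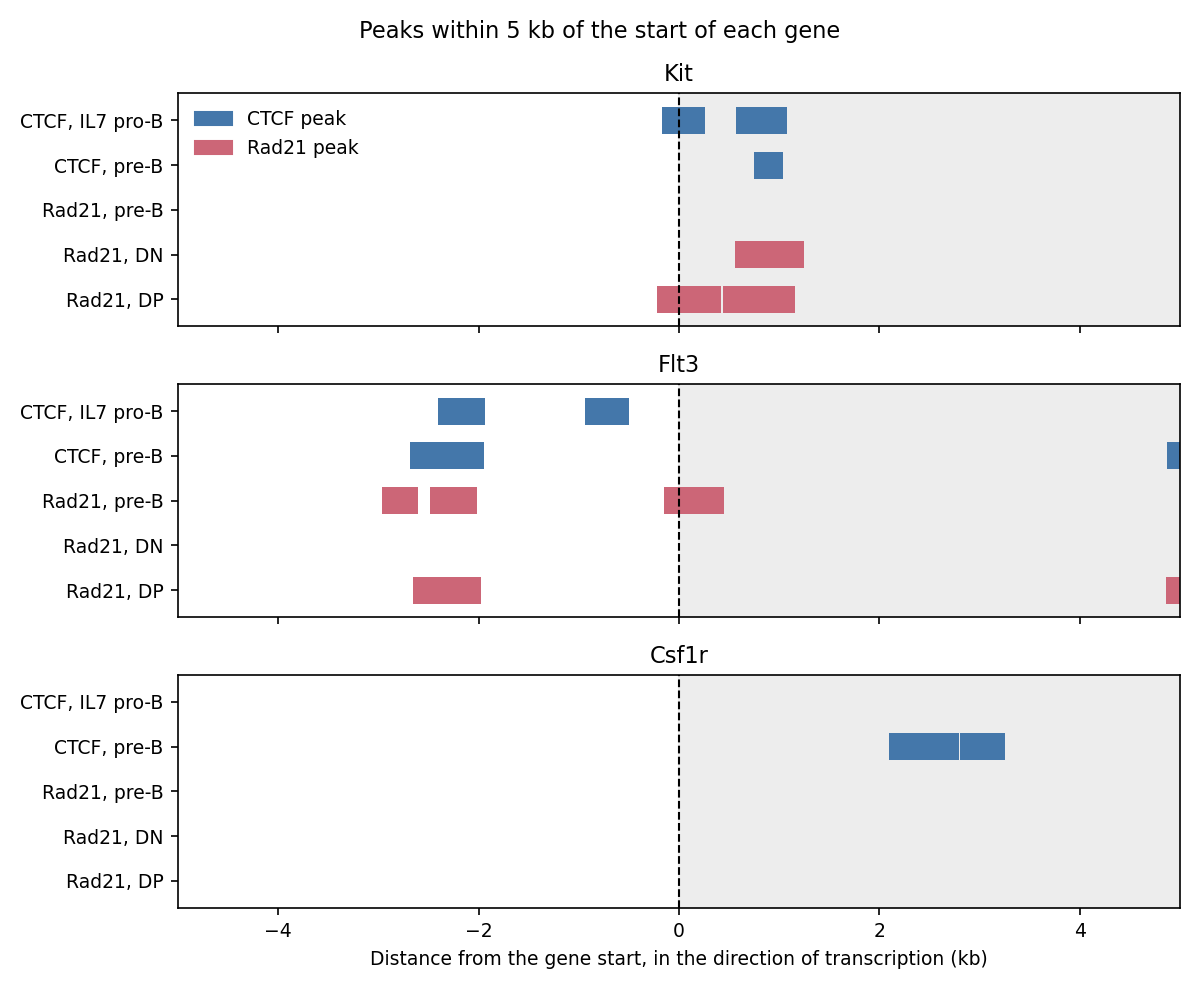
Peaks within 5 kb of the start of Kit, Flt3 and Csf1r, with 1 row per library. Bars span each peak, the x axis is the distance from the gene start in kb along the direction of transcription, and grey marks the gene side. Kit has peaks at its start in 4 of the 5 libraries, Flt3 in 2 that do not overlap, and Csf1r in none, its nearest being 2 pre-B CTCF peaks in intron 1.

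Among coding genes, 38.8% had a CTCF peak within 1 kb of an annotated start in IL7-cultured pro-B cells and 27.1% in pre-B cells. For Rad21 the shares were 20.9% in pre-B cells, 4.57% in DN thymocytes and 33% in DP. Kit had a peak there in 4 libraries, its DN peak being in the list where this was least frequent. Flt3 had CTCF at its start only in the IL7-cultured pro-B list, above 29.9% of it, at -0.717 kb, and Rad21 only in pre-B cells, above 7.37%, at 0.154 kb over exon 1. These weak Flt3 peaks were both lost from lists of equal length. Csf1r had none within 1 kb of any of its 4 annotated starts.

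Away from its start, Kit had 1 site shared by most libraries. It lay at chr5:76132307-76132941, 162 kb from the start and 79.6 kb past the end of the gene, in a stretch without annotated genes. CTCF scored above 78.6% of the IL7-cultured pro-B list and 46.5% of the pre-B list there, and Rad21 above 19.4% of the pre-B list and 69.6% of the DP list. It was the best-ranked Kit site for CTCF in both B-lineage lists, and DN had no peak. In lists of equal length CTCF was kept in IL7-cultured pro-B cells, while the pre-B CTCF list was not cut. Rad21 was lost in both pre-B cells and DP, and the pre-B Rad21 peak, with a score of 85.74, was also lost at a score limit of 100. The remaining 6 sites had a peak in 1 library each. CTCF was called in IL7-cultured pro-B cells alone at -88.3, -75 and 230 kb, above 28.7%, 49.3% and 16.8% of the list. Rad21 was called in DP thymocytes alone at 92.5, 156 and 217 kb, above 2.45%, 33.6% and 11.7%. Of these single-library sites, lists of equal length kept the one at -75 kb and lost the others. Over the genome, 41.2% of CTCF sites were called in IL7-cultured pro-B cells alone and 33.6% of Rad21 sites in DP alone. No enhancer map was used, so distal sites are described by position and neighbouring genes only.

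The sequences at 3 Kit sites are given because they show how far the sites differed from the consensus. Capitals mark the best match of 12 bases, written 5′ to 3′ on the strand that reads as the usual forward CTCF motif.
Kit -88.3 kb, CTCF in IL7-cultured pro-B cells alone, 1 mismatch, chr5:75882582-75882617, plus strand: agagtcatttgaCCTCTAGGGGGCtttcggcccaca
Kit 0.845 kb, 4 libraries, 3 mismatches, chr5:75971823-75971858, plus strand: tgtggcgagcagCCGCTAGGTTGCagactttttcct
Kit 230 kb, CTCF in IL7-cultured pro-B cells alone, 2 mismatches, chr5:76201217-76201252, plus strand: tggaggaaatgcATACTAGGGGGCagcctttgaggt
The pair of Kit sites with the most libraries, the intron site and that at 162 kb, thus had no match within 2 mismatches, and a pair called only in IL7-cultured pro-B cells had one, both on the plus strand. The site at -75 kb, also called in IL7-cultured pro-B cells alone, had no such match, nor had the CTCF peak over exon 1. At 3 mismatches a match says little, since 50% of sequences 2000 bp away from pre-B CTCF peaks had one, against 8.97% at 2 mismatches.

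**Figure D2:**
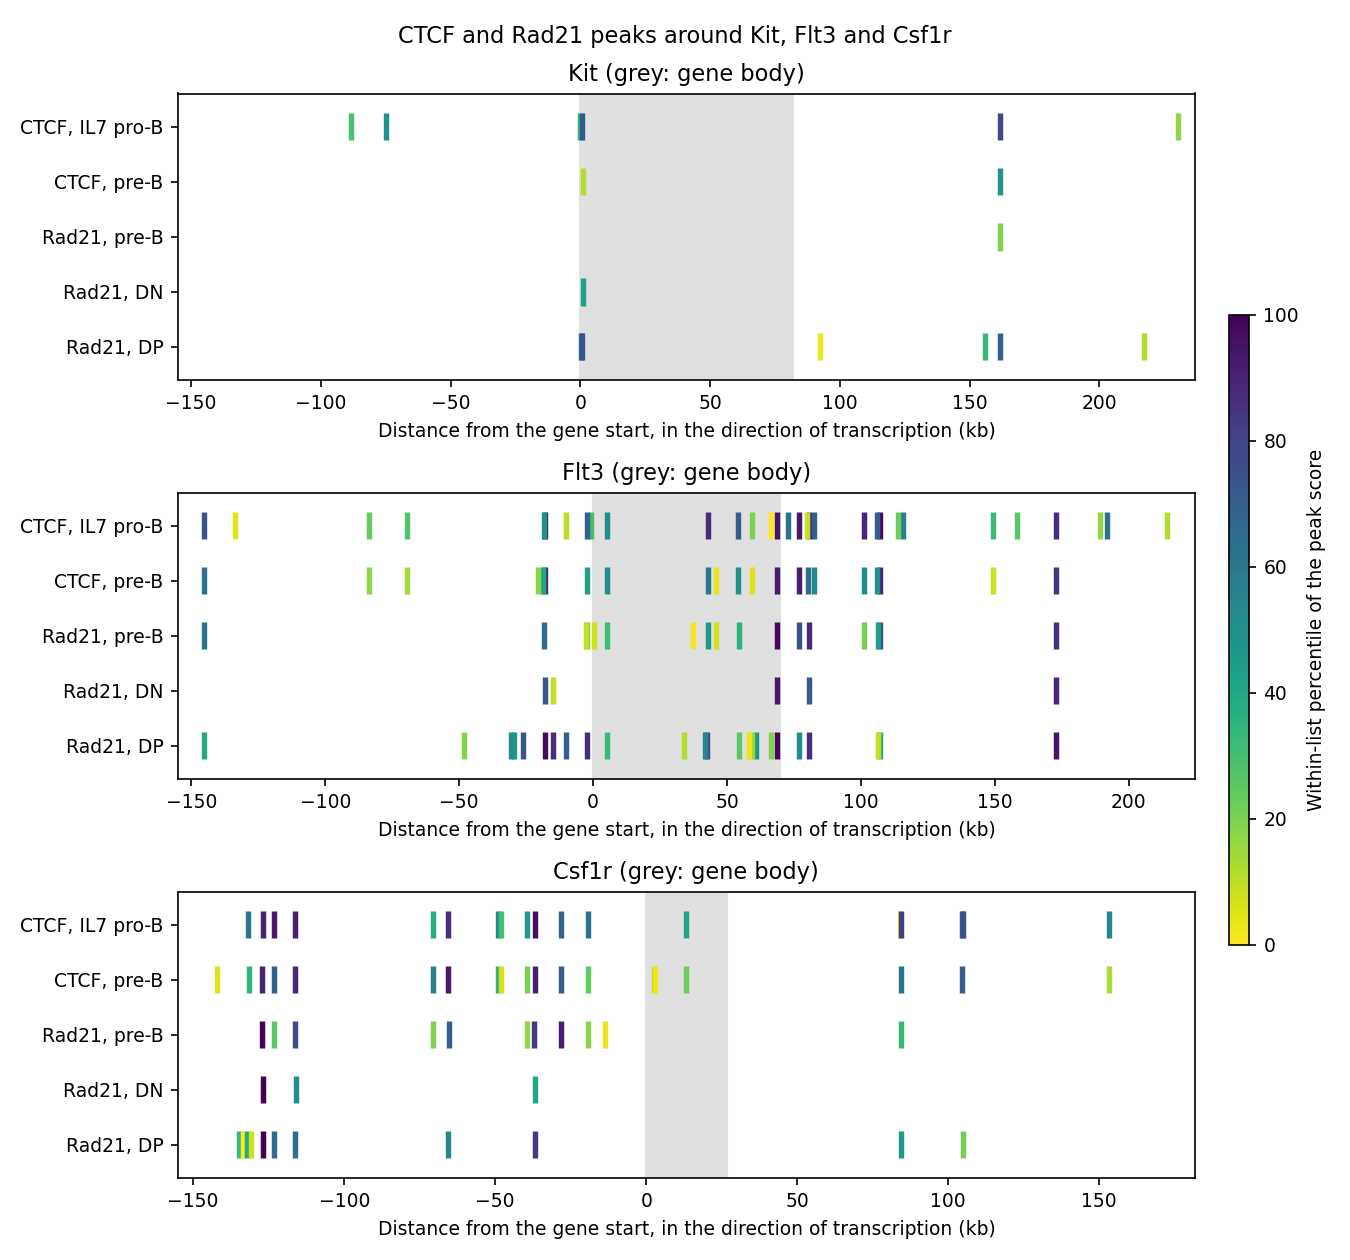
Every peak in the windows of Kit, Flt3 and Csf1r, with 1 row per library and the gene body in grey. The x axis is the distance from the gene start in kb, and colour is the within-list percentile of the peak score, from 0 to 100. Kit has few marks and an empty gene body past its start, Flt3 has marks through its gene body, and Rad21 has none in that of Csf1r.

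The Kit window was sparse. Its 0.382 Mb held 6 CTCF peaks in IL7-cultured pro-B cells and 2 in pre-B cells, where the same window around all coding genes held a median of 17 and 10. Rad21 had 1 peak in pre-B cells, 1 in DN thymocytes and 6 in DP, against medians of 7, 2 and 8. Fewer peaks than at Kit were found for 16.6% and 12.6% of coding genes in the CTCF lists, and for 11.7%, 23.4% and 38.7% in the Rad21 lists. The longest stretch without a peak of any list was 90.9 kb.

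Flt3, on chromosome 5 from 148142317 to 148212065 on the minus strand, stood at the other end. Its 0.37 Mb window held 31 and 21 CTCF peaks, and 17, 5 and 24 Rad21 peaks in pre-B cells, DN and DP. Between 82.7% (DN) and 93.9% (DP) of coding genes had fewer peaks in the same list. The 23 sites of Csf1r, on chromosome 18 from 61265226 to 61291803 on the plus strand, gave 18 and 19 CTCF peaks and 11, 3 and 11 Rad21 peaks in 0.327 Mb. For Csf1r, the share of coding genes with fewer peaks ran from 52.7% in the CTCF list of IL7-cultured pro-B cells to 81.8% in that of pre-B cells.

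**Figure D3:**
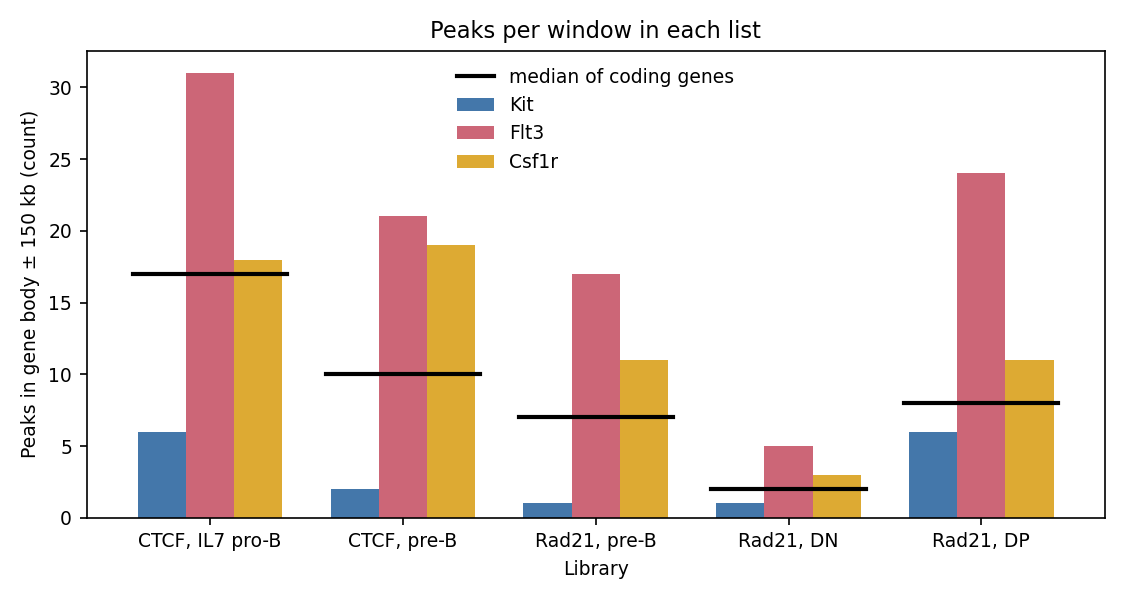
Number of peaks in the gene body and 150 kb on either side for Kit, Flt3 and Csf1r in each of the 5 lists, with the median over 22350 coding genes as a black line. Bars are counts from 1 library each. Kit lies below the line in every list and Flt3 above it, as does Csf1r, which exceeds it by 1 peak in the IL7-cultured pro-B list.

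The best-ranked Flt3 site in 4 of the 5 lists, all but the CTCF list of IL7-cultured pro-B cells, lay inside the gene near its 3′ end, in intron 23 of 23, at chr5:148142883-148143780, 68.7 kb from the start. All 5 libraries had a peak there. CTCF scored above 94.9% of the IL7-cultured pro-B list and 93.3% of the pre-B list. For Rad21 the values were 97.9% in pre-B cells, 94.1% in DN thymocytes and 98.1% in DP.

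The other 3 Flt3 sites called in every list lay outside the gene. At 80.4 kb, in an intron of the neighbouring Prhoxnb, CTCF scored above 83% and 63.5% of the lists, and Rad21 above 87.6%, 71.5% and 86% in pre-B, DN and DP. At 173 kb the values were 87.8% and 84.7% for CTCF and 86.7%, 89.2% and 95.1% for Rad21. Upstream, at -18.1 kb, between Flt3 and Pan3, which encodes a subunit of a poly(A) nuclease, they were 93.3% and 88.3% for CTCF and 66.1%, 73.2% and 96.9% for Rad21. This upstream site fell out of the pre-B list but stayed in the DP list when all were limited to 9701 peaks, the length of the DN list. Of all sites of the genome 10.3% were called in every list, and 4 of 42 at Flt3, 3 of 23 at Csf1r and 0 of 9 at Kit were.

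Sequences of 7 Flt3 sites with CTCF in both B-lineage libraries are shown for the strand they lie on, with the match in capitals as above.
Flt3 173 kb, all 5 libraries, 2 mismatches, chr5:148039114-148039149, minus strand: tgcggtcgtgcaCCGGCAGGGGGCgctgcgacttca
Flt3 107 kb, 4 libraries, 0 mismatches, chr5:148104874-148104909, minus strand: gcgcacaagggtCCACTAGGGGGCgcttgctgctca
Flt3 101 kb, 3 libraries, 2 mismatches, chr5:148110892-148110927, minus strand: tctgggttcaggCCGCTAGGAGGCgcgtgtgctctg
Flt3 76.8 kb, 4 libraries, 1 mismatch, chr5:148135255-148135290, minus strand: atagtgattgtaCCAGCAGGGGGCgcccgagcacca
Flt3 54.3 kb, 4 libraries, 2 mismatches, chr5:148157761-148157796, minus strand: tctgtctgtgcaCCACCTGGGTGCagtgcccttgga
Flt3 42.7 kb, 4 libraries, 2 mismatches, chr5:148169310-148169345, minus strand: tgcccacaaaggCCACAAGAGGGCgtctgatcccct
Flt3 -2.45 kb, 4 libraries, 2 mismatches, chr5:148214263-148214298, plus strand: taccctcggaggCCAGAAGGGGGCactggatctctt
The exact match, at 107 kb, lay 13946 bp from the start of Cdx2, a homeobox gene of the gut, and was the best-ranked Flt3 site in the CTCF list of IL7-cultured pro-B cells, where it outscored 97.3% of peaks. In pre-B cells CTCF scored above 90% there and Rad21 above 75.9%, whereas Rad21 in DP thymocytes scored above 40.1% and DN had no peak. The 6 matches shown from 42.7 to 173 kb, inside Flt3 and beyond its end, were on the minus strand, the strand of the gene itself, and the match shown at -2.45 kb was on the plus strand. The sites shown are not all of those with a match, and other matches lay on the plus strand, among them one at 149 kb with 2 mismatches and no Rad21 peak. Over the 31 CTCF sites of Flt3, 6 had a match on the plus strand and 7 on the minus strand.

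Through the Flt3 gene body, Rad21 was called at 12 sites besides the promoter, and CTCF at 7 of them. Besides the intron 23 site, those shared by both CTCF lists, pre-B Rad21 and DP Rad21 were at 54.3, 42.7 and 5.26 kb. At 54.3 kb, in intron 18, CTCF scored above 71.7% and 50.6%, and Rad21 above 35.6% in pre-B cells and 25.8% in DP. At 42.7 kb, over exon 10 of 24, CTCF scored above 86.6% and 61.3% of the lists, and Rad21 above 47.1% in pre-B cells and 77.7% in DP. At 5.26 kb, in intron 1, CTCF scored above 50.9% and 50.8%, and Rad21 above 31.3% in pre-B cells and 32.4% in DP. At the 5 sites of the gene body with Rad21 and no CTCF peak, 4 were called in DP alone, at 60.8, 58.3, 41.8 and 33.8 kb, above 47%, 2.64%, 53.2% and 11.4% of the list. The 5th, at 37.3 kb, was called in pre-B cells alone, above 1.07%. None of these 5 was kept in lists of equal length. The other gene-body sites were weak. At 66.4 kb CTCF scored above 0.204% of the IL7-cultured pro-B list and Rad21 above 19.3% in DP. At 59.4 kb CTCF scored above 19.6% and 5.26% of its lists and Rad21 above 16.4% in DP. At 46 kb both proteins were called in pre-B cells alone, CTCF above 4.04% and Rad21 above 7.32%.

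Upstream of Flt3, DP thymocytes had a series of Rad21 peaks toward and into Pan3. At -15.1 kb, chr5:148226870-148227531, Rad21 was called in DN above 9.9% of the list and in DP above 86.3%, with no CTCF peak and no pre-B peak. It is the only Rad21 site of Flt3 called in both thymocyte libraries and not in pre-B cells. Its DP peak was kept in lists of equal length, where no DN peak could be lost. Rad21 was called in DP alone at -26, -29.5, -30.7 and -48.1 kb, above 74.1%, 46.9%, 50.3% and 18.5% of the list and with no CTCF peak. The pair at -29.5 and -30.7 kb lay 575 and 641 bp from an annotated Pan3 start. At -10.2 kb the DP peak scored above 70.5% of its list and overlapped a CTCF peak of IL7-cultured pro-B cells that scored above 10.9%. At -2.45 kb, close to the promoter, Rad21 scored above 85.9% of the DP list and 21.8% of the pre-B list. In lists of equal length the DP peaks at -2.45, -15.1, -18.1 and -26 kb were kept and those at -10.2, -29.5, -30.7 and -48.1 kb were lost. Over the whole genome, 33.6% of Rad21 sites were called in DP alone. Beyond the 3′ end, at 106, 107 and 76.8 kb, Rad21 scored above 44.4%, 75.9% and 75.8% in pre-B cells and 10.1%, 40.1% and 50.6% in DP, while the sites at 173 and 80.4 kb, given above, were higher in DP and about equal. At 12 Flt3 sites Rad21 was called in both pre-B cells and DP. The percentage of the list that scored lower was greater in DP at 6 of them and in pre-B cells at 6. This split depends on the measure, because the lists differ in length. Counted from the top, the peak at 68.7 kb ranked 641 of 30488 in pre-B cells and 703 of 36743 in DP. That at 5.26 kb ranked 20955 and 24855. Both thus stood nearer the top of the pre-B list, although their percentages were greater in DP. The order at the other sites was the same by either measure.

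Csf1r had no Rad21 peak in its gene body in any of the 3 lists. This was also the case for 48.6% of all coding genes and for 35% of those 20 to 35 kb long, among which Csf1r falls with 26.6 kb, whereas the bodies of Kit and Flt3 are 81.8 and 69.7 kb long. CTCF was called there at 3 sites. A pair of weak pre-B peaks, at chr18:61267327-61268018 and chr18:61268035-61268485, lay 2.45 and 3.03 kb from the start and scored above 10% and 1.22% of the list. They lay in intron 1 of the longest annotated transcript, behind the first coding exon, and neither was called in IL7-cultured pro-B cells, though that list is longer and reaches lower scores. This intron is known to hold FIRE, an enhancer of Csf1r in macrophages, whose position was not looked up here. Both peaks had scores under 100 and were lost with that limit. The 3rd site, over exon 10 at 13.1 kb, was called for CTCF above 42.1% of the IL7-cultured pro-B list and 22.2% of the pre-B list.

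Upstream, Csf1r is preceded by Pdgfrb, a receptor of the same family, and then by Cdx1, Slc6a7 and Camk2a. The best-ranked site in the 3 Rad21 lists lay at -127 kb over an exon of Camk2a, a kinase gene of neurons, at chr18:61137424-61138774. CTCF scored above 90.5% of both lists there. Rad21 ranked 230 of 30488 in pre-B cells, 12 of 9701 in DN and 4 of 36743 in DP thymocytes. Its best consensus match had 0 mismatches and lay on the minus strand, facing away from Csf1r. At -116 kb Rad21 was again called in all 3 libraries, at 78.9% in pre-B cells, 50% in DN thymocytes and 63.5% in DP, with CTCF above 92% and 88.9%. The DP peak there was lost in lists of equal length.

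For CTCF in pre-B cells the best-ranked site was at -65.6 kb, 3801 bp from the start of Cdx1, a homeobox gene. CTCF scored above 94% of that list and 87.2% of the longer one, and Rad21 above 71.1% in pre-B cells and 53.2% in DP. At -123 kb, in Camk2a, CTCF scored above 93.9% and 68.6%, and Rad21 above 26.3% in pre-B cells and 65.3% in DP.

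Nearest to Csf1r among the sites called everywhere was that at -37 kb, in Pdgfrb, the best-ranked one in the CTCF list of IL7-cultured pro-B cells. CTCF scored above 96.2% and 90.7% of the lists, and Rad21 above 84% in pre-B cells, 40.2% in DN thymocytes and 82.5% in DP. Between it and the gene start lay 3 sites with Rad21 in pre-B cells and in neither thymocyte list, at -28.3, -19.2 and -13.5 kb. The first, in an intron of Pdgfrb, scored above 92.5% of the pre-B Rad21 list and had CTCF above 67.9% and 72.1%. It was kept in pre-B cells in lists of equal length, and DP thymocytes had no peak there even in their full, longer list. The other pair scored above 17.9% and 3.15% and were lost, as were the pre-B Rad21 peaks at -70.7 and -39.5 kb, above 19.5% and 15.7%. In all, 5 of the 16 Rad21 sites of Csf1r were called in pre-B cells alone (31.2%, 11 to 58.7, exact 95% interval), where the share over all Rad21 sites was 20.6%.

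DP thymocytes also had 5 of the 16 Rad21 sites to themselves (31.2%, 11 to 58.7), where the share over all Rad21 sites was 33.6%, and none of the 5 was kept in lists of equal length. None lay between Camk2a and the gene start. At -135, -133, -132 and -131 kb, all in introns of Camk2a, they scored above 32.7%, 0.601%, 39.7% and 7.34% of the list, and at 104 kb, in an intron of Slc26a2, above 21.5%. After the exon 10 site of Csf1r no list had a peak for 70.3 kb, of which 57.2 kb lay past the end of the gene. Then came the site at 84.3 kb, with CTCF above 81.3% and 61.3%, Rad21 above 33.1% in pre-B cells and 45.8% in DP, and a match of 1 mismatch on the plus strand.

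CTCF sites shared by both libraries were counted at each of the 3 genes, and no difference between the genes was tested. Both B-lineage libraries had CTCF at 16 of 19 sites of Csf1r (84.2%, 60.4 to 96.6, exact Clopper-Pearson 95% interval), 18 of 31 of Flt3 (58.1%, 39.1 to 75.5) and 2 of 6 of Kit (33.3%, 4.33 to 77.7), against 56.5% of all CTCF sites. Sites called in IL7-cultured pro-B cells alone numbered 0 at Csf1r, 11 at Flt3 and 4 at Kit, against 41.2% of all. Those called in pre-B cells alone numbered 3 at Csf1r, 2 at Flt3 and 0 at Kit, against 2.36%. Among the former, the Flt3 sites not yet described lay at 214, 192, 189, 158, 116, 114, 72.7 and -134 kb and scored above 4.29% to 63% of the list. Among the latter were that of Flt3 at -20.5 kb, above 17.5%, and that of Csf1r at -142 kb, above 4.69%. These intervals cover counting error only, and neighbouring sites of 1 gene are not independent. Both CTCF lists were then limited to 42250 peaks. That is the whole pre-B list, so only the IL7-cultured pro-B list lost peaks. In these lists 14, 14 and 2 sites were shared by both at Csf1r, Flt3 and Kit. IL7-cultured pro-B cells alone then had 0, 3 and 1 sites, and pre-B cells alone 5, 6 and 0. Over the whole genome, lists of that length gave 74% shared sites, 12.7% in IL7-cultured pro-B cells alone and 13.3% in pre-B cells alone. The 14 shared sites of Csf1r, out of 19, were then close to that 74%.

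For Rad21, all 3 libraries had a peak at 3 of 16 sites of Csf1r, 4 of 28 of Flt3 and 0 of 6 of Kit, against 18.7% of all Rad21 sites. Peaks in DP alone were found at 5, 11 and 4 of them, against 33.6%, and peaks in pre-B cells and DP alone at 3, 8 and 1, against 25.1%. Few of the sites called in 1 library stayed so in shorter lists. With lists of equal length, 1 of the 11 DP-alone sites of Flt3 was still called in DP alone, and none of those of Csf1r and Kit was. Of the sites called in pre-B cells alone, 1 of 5 at Csf1r and 0 of 4 at Flt3 still were. Over all Rad21 sites these shares were 6.36% for DP alone and 5.9% for pre-B cells alone.

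**Figure D4:**
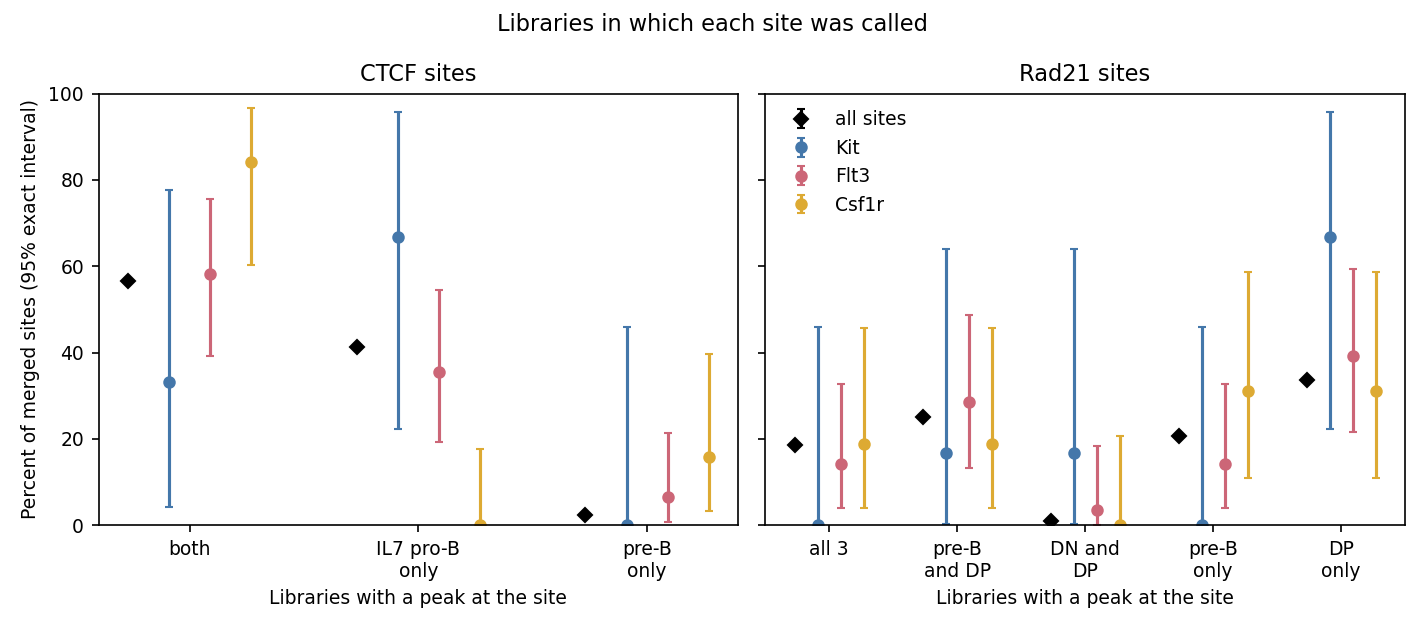
Percent of merged CTCF sites (left) and Rad21 sites (right) called in each combination of libraries, for all sites of the genome (black) and for Kit, Flt3 and Csf1r. Points are shares and bars exact 95% intervals, which cover counting error only. Csf1r has no CTCF site of IL7-cultured pro-B cells alone, and its interval for sites shared by both runs from 60.4 to 96.6%. The full lists shown differ in length. In lists of equal length 14 of 19 CTCF sites of Csf1r were shared, against 74% of all sites.

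Co-binding was counted within pre-B cells, where both proteins were profiled. Of pre-B CTCF peaks, 15 of 21 at Flt3 (71.4%, 47.8 to 88.7), 10 of 19 at Csf1r (52.6%, 28.9 to 75.6) and 1 of 2 at Kit overlapped a pre-B Rad21 peak, against 63.5% of the whole list. In the other direction, 15 of 17 pre-B Rad21 peaks at Flt3, 10 of 11 at Csf1r and 1 of 1 at Kit overlapped a pre-B CTCF peak, against 88.1%. Over either CTCF list lay 92.4% of all pre-B Rad21 peaks, 98.4% of DN peaks and 69.2% of DP peaks. At the members these were the same 15, 10 and 1 for pre-B cells. In DN they were 4 of 5 at Flt3, 3 of 3 at Csf1r and 1 of 1 at Kit, and in DP 15 of 24, 8 of 11 and 3 of 6. CTCF was not profiled in thymocytes here, so a DP peak without CTCF is one without a B-lineage CTCF peak. The consensus within 2 mismatches was found in 13 of 19 pre-B CTCF peaks at Csf1r (68.4%, 43.4 to 87.4), 9 of 21 at Flt3 (42.9%, 21.8 to 66) and 0 of 2 at Kit, against 48.3% of the list. With 1 mismatch the order turned for Csf1r, with 2 of 19 (10.5%) against 16.1% of the list, and Flt3 had 3 of 21 (14.3%).

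The ligands, related receptors, signalling partners and regulators of the 3 genes were counted the same way, 26 genes in all. Values at a start are the best peak of each list within 1 kb of any annotated start of the gene. In their windows the median was 23 and 16 CTCF peaks, against 17 and 10 over all coding genes. Some windows overlap and share peaks, as those of Stat5a and Stat5b do, and those of Pdgfrb and Flt1 overlap the windows of Csf1r and Flt3. For Rad21 it was 11, 4 and 10.5 in pre-B, DN and DP, against 7, 2 and 8. Among the ligands, Kitl, which encodes stem cell factor, had 2 CTCF peaks in either list and 0 Rad21 peaks in all 3 Rad21 lists. Flt3l had 44 and 31 CTCF peaks, and at its start CTCF scored above 97.3% and 97.6% of the lists and Rad21 above 92.1%, 22.2% and 90.9%. Csf1 had Rad21 at its start in pre-B cells only, above 33% of the list, and Il34 in DP only, above 25.5%. Of the receptors next to the members, Pdgfra had all 5 libraries at its start, with CTCF above 99.3% and 83.1%, and Kdr and Pdgfrb had none. Over the 26 genes, a start held CTCF in 15 and 11 (57.7% and 42.3%, against 38.8% and 27.1% of all coding genes). Rad21 was at the start of 12, 2 and 11 of them (46.2%, 7.69% and 42.3%, against 20.9%, 4.57% and 33%).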

How the data were processed

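Per the labels and methods, the authors trimmed adapters, dropped duplicate reads, aligned to mm9 with Bowtie while retaining reads with up to 3 positions, and took confident peaks over input from MACS 1.4.2. The labels name Bowtie 0.12.9, and the methods another version. The deposited score of each peak, made by the authors from its p-value, grows with depth and was used within 1 list only. Pre-B CTCF and Rad21 share 1 input. The 5 lists were joined into sites at 1 bp of overlap, and genes came from GENCODE M1, built on the same assembly. A promoter site lay within 1 kb of an annotated start. Spi1 was matched through its older symbol, Sfpi1. Shares carry Clopper-Pearson intervals. The members and gene lists were chosen with earlier results of these data known. Sites were named if at promoters, in gene bodies, in all 5 lists or ranked best, and most of those differing between lists were named too. Alternatives were scores of at least 100, lists of equal length, peak midpoints, 100 kb flanks, 50% overlap, 1 or 3 mismatches and promoters of 2.5 kb. The sequence of 1 site is not reported here. The joining, overlap count and motif search were tested on simulated data. Scripts ran in Python 3.11.15 with scipy 1.17.1, numpy 2.4.6 and matplotlib 3.10.9.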

Additional observations from a re-analysis of the deposited data

How the results depend on the processing

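No paired analysis was possible because each antibody and cell type had 1 library and no result comes from a test. Of 96 values recomputed for 30 counts, 75 stayed within 1.5 times the count reported. Lists of equal length left 3 and 18 CTCF peaks of IL7-cultured pro-B cells at Kit and Flt3. They left 0, 5 and 5 pre-B Rad21 peaks and 1, 8 and 2 DP Rad21 peaks at Kit, Flt3 and Csf1r. A score of at least 100 left 1 pre-B CTCF peak at Kit, 0, 11 and 7 pre-B Rad21 peaks at Kit, Flt3 and Csf1r, 1 CTCF site of Kit shared by both libraries and 0 pre-B CTCF peaks of Kit over Rad21. With 100 kb flanks Csf1r had 1 DN and 4 DP Rad21 peaks. A single mismatch left 3 peaks with the consensus at Flt3 and 2 at Csf1r (10.5%, against 16.1% of the list), and 3 mismatches gave 2 at Kit and 17 at Flt3. Within 2.5 kb of a start Csf1r had 1 site, the pre-B CTCF peak in intron 1. Counting by midpoint and joining at 50% overlap moved no count beyond 1.5 times. The depth of each library is unknown, so weak sites missing from the DN list in particular cannot be read as unbound.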

Other observations

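Among the genes related to the members, Runx1, which encodes a regulator of blood stem cells and of T cells, had 41 Rad21 peaks in its window in DP thymocytes and 14 in pre-B cells. Its gene body held 25 of the DP peaks and 5 of the pre-B peaks, with 7 CTCF peaks in either CTCF list. The best Rad21 peak at any annotated Runx1 start scored above 99.9% of the DP list and 92% of the pre-B list, not necessarily at the same start. Pik3r1, the regulatory subunit of PI3 kinase, had 20 DP and 5 pre-B Rad21 peaks in its window. Lyn, a kinase of B cells and myeloid cells, had 6 in DP and 18 in pre-B cells. These genes are among the larger differences of the 26 counted. Cbl had 39 in DP and 23 in pre-B cells, Pik3cd 18 and 19, and Spi1 14 in either. Each value comes from 1 library, and the lists differ in length, so these differences were not tested.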
